A study of Mus musculus with 8 samples.

Results

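Collagens and the matrix genes that go with them were examined in RAW macrophages, a cell line from mouse that behaves like macrophages, and, as a second kind of culture, in macrophages grown from mouse bone marrow. The set was defined by gene symbol: every gene named Col, a number, a and a number, plus Dcn, Lum, Bgn, Fn1, Sparc, Postn, Aebp1, Bmp1, Cdh11, Cald1 and Lox. It held 55 genes, 44 collagen chain genes and 11 others, of 24421 genes in each table. The rule used symbols and not values.

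The 4 RAW groups had 2 libraries each. MCD-LPS cells received methyl-β-cyclodextrin (MCD; 5 mM, 1 hour), a cyclic sugar that extracts cholesterol from cell membranes, were washed, and were then given lipopolysaccharide (LPS; 100 ng/ml, 3 hours), the bacterial product sensed by TLR4. LPS cells received LPS alone at that dose and time, MCD cells received MCD alone and were read when it ended, and ctl cells were untreated. All 8 libraries were made from total RNA of the same line, depleted of ribosomal RNA, and held 38645458 to 48436956 reads in genes. Macrophage markers summed to between 9840 and 14287 CPM (reads per 1000000 reads in genes) in these libraries, with Lyz2 alone at 5223 to 9491 CPM. The marrow macrophages came from wild type C57BL/6J mice, 4 to 16 weeks of age, and were differentiated in medium conditioned by a mouse fibroblast line. These cells and a further set of RAW cells (untreated and LPS, or statin and statin-LPS) are described only through the mean deposited per gene and table. The marrow table covered LPS-treated cells with and without acetylated LDL. All tables were normalized separately, so levels set side by side across them carry no test.

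Collagens are secreted proteins whose chains wind around each other into a helix and then build the fibres, networks and anchoring filaments of the extracellular matrix. Fibrillar collagens I, III and V form the fibres of connective tissue, collagen IV forms the sheet of basement membranes, and collagen VI forms beaded filaments around cells. Most of this matrix is made by fibroblasts, osteoblasts and other stromal cells, while macrophages are better known for binding, taking up and breaking it down.

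In RAW cells the gene with the highest level was Col4a5, which encodes a collagen IV chain and lies back to back with Col4a6 on the X chromosome. The next in order of level per length was Col18a1, which encodes a basement membrane collagen from whose end the fragment endostatin is cut. The DNA just upstream of these genes is shown because Col4a5 and Col4a6 start close together, 1309 bp apart by the outermost starts of the annotation, and yet had very different levels, and because Col18a1 has start sites in more than one place. The sequences are from RefSeq (GRCm38.p6), run 5′ to 3′ on the strand of the gene, and cover 250 bases before to 50 bases after the start; capitals mark the CCAAT box (CCAAT) and the GC box (GGGCGG), read on both strands.
Col4a5, chrX:141475169-141475468, strand +: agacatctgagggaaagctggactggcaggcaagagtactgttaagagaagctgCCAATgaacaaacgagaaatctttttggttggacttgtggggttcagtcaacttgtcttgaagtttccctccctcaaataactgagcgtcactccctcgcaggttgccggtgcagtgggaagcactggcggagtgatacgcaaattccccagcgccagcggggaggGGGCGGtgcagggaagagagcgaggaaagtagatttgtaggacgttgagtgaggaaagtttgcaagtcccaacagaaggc
Col4a6, chrX:141474027-141474326, strand -: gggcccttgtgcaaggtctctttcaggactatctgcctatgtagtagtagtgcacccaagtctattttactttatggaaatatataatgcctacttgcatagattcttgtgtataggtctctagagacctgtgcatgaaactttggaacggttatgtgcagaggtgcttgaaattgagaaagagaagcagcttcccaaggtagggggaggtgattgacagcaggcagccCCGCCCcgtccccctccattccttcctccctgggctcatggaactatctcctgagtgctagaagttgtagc
Col18a1, chr10:77166481-77166780, strand -: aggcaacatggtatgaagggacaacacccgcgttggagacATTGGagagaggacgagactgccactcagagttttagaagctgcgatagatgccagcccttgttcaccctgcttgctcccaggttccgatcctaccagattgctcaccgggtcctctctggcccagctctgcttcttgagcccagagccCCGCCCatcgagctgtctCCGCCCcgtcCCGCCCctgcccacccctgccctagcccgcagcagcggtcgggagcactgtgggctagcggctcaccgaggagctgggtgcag
Col18a1, chr10:77113656-77113955, strand -: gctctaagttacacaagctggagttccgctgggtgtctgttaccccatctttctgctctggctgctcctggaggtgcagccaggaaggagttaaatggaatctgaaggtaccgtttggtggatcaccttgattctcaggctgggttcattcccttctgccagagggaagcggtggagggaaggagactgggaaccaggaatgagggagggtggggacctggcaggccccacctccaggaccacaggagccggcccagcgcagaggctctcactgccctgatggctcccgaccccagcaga
The Col4a5 window held 1 CCAAT box and 1 GC box, and the Col4a6 window held 1 GC box. The upstream of the Col18a1 windows held 1 CCAAT box and 3 GC boxes, and the downstream one held 0 of either. None of these 4 windows held TATAAA. Among all 32851 promoters of the same length, 35.7% held GGGCGG, 37.4% held CCAAT and 13.6% held TATAAA, on either strand. For the collagen and matrix genes, 40 of 55 matched the table, with 45 promoters, of which 26 (57.8%) held GGGCGG, 15 (33.3%) held CCAAT and 7 (15.6%) held TATAAA. A match to these letters is a description of the sequence only.

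Col4a5 (ENSMUSG00000031274.16, chrX:141475385-141689234, mm10) was at 128 and 123 CPM in MCD-LPS cells, 150 and 140 CPM in LPS cells, 96.3 and 98.6 CPM in MCD cells, and 100 and 98.3 CPM in ctl cells. It made up 72.1% to 79.3% of the CPM summed over all 55 genes in each of the 8 libraries. Col4a6 (chrX:141165403-141474076), its neighbour on the opposite strand, was at 1.37 and 1.47 CPM in MCD-LPS cells, 1.89 and 1.63 CPM in LPS cells, 0.950 and 0.847 CPM in MCD cells, and 0.976 and 1.12 CPM in ctl cells. For both genes every library with LPS lay above every library without it. Per kilobase of exon, Col4a5 was 94.4 to 138 times the level of Col4a6 in the 8 libraries. The other collagen IV chains were low. Col4a1 and Col4a2, which encode the chains of most basement membranes, had 105 and 20 reads over all 8 libraries, and Col4a3 and Col4a4 had 21 and 1.

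Col18a1 (chr10:77052178-77166548) was the second gene of the set, at 24.9 and 27.4 CPM in MCD-LPS cells, 28.7 and 28.6 CPM in LPS cells, 12.0 and 13.0 CPM in MCD cells, and 11.9 and 12.7 CPM in ctl cells. The libraries with LPS were all above those without it. Its closest relative Col15a1, also a collagen of the basement membrane zone, had the opposite order, with 0.123 and 0.149 CPM in MCD-LPS cells and 0.0931 and 0.129 CPM in LPS cells, against 0.537 and 0.282 CPM in MCD cells and 0.545 and 0.365 CPM in ctl cells. These are 4 to 26 reads per library.

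Collagens that decorate the surface of fibrils were represented by Col20a1, Col9a3 and Col14a1. Col20a1 was at 5.74 and 6.95 CPM in MCD-LPS cells and 4.84 and 8.46 CPM in LPS cells, and at 1.96 and 1.37 CPM in MCD cells and 1.27 and 1.46 CPM in ctl cells. Col9a3, a chain of the cartilage collagen IX, was at 2.16 and 2.79 CPM in MCD-LPS cells, 1.23 and 2.64 CPM in LPS cells, 0.310 and 0.456 CPM in MCD cells, and 0.613 and 0.411 CPM in ctl cells. Its partner chains Col9a1 and Col9a2 had 0 reads in all 8 libraries, which allows up to 0.00870 CPM each (3 reads of the total). Col14a1 had 6 and 19 reads in MCD-LPS cells and 11 and 17 in LPS cells, against 5 and 4 in MCD cells and 3 and 2 in ctl cells. LPS replicate 2 was above LPS replicate 1 for all 3 genes. Of the Col9a3 exons, 6.07% lie opposite exons of Tcfl5, and the sources used here do not say whether reads were counted by strand.

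The fibrillar collagens with enough reads to test were Col11a2 and Col27a1, minor chains found in cartilage. Col11a2 was at 3.11 and 3.31 CPM in MCD-LPS cells, 2.93 and 3.78 CPM in LPS cells, 4.83 and 4.32 CPM in MCD cells, and 5.02 and 4.39 CPM in ctl cells. Col27a1 was at 1.74 and 1.92 CPM in MCD-LPS cells, 1.91 and 2.25 CPM in LPS cells, 2.27 and 3.11 CPM in MCD cells, and 2.45 and 2.28 CPM in ctl cells. Both were lower in every library with LPS than in every library without it, although for Col27a1 the gap was from 2.25 to 2.27 CPM. Col23a1, which encodes a collagen anchored in the cell membrane, showed the widest gap in that direction. It had 4 and 9 reads in MCD-LPS cells and 7 and 11 in LPS cells, against 59 and 64 in MCD cells and 62 and 64 in ctl cells. Col7a1, the collagen of the anchoring fibrils of skin, was at 1.59 and 1.97 CPM in MCD-LPS cells, 1.65 and 2.28 CPM in LPS cells, 1.55 and 1.20 CPM in MCD cells, and 1.36 and 1.37 CPM in ctl cells. Col4a1 was the exception to this separation, with 9 and 16 reads in MCD-LPS cells, 6 and 8 in LPS cells, 18 and 10 in MCD cells and 8 and 30 in ctl cells, so that the ranges overlapped.

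**Figure D1:**
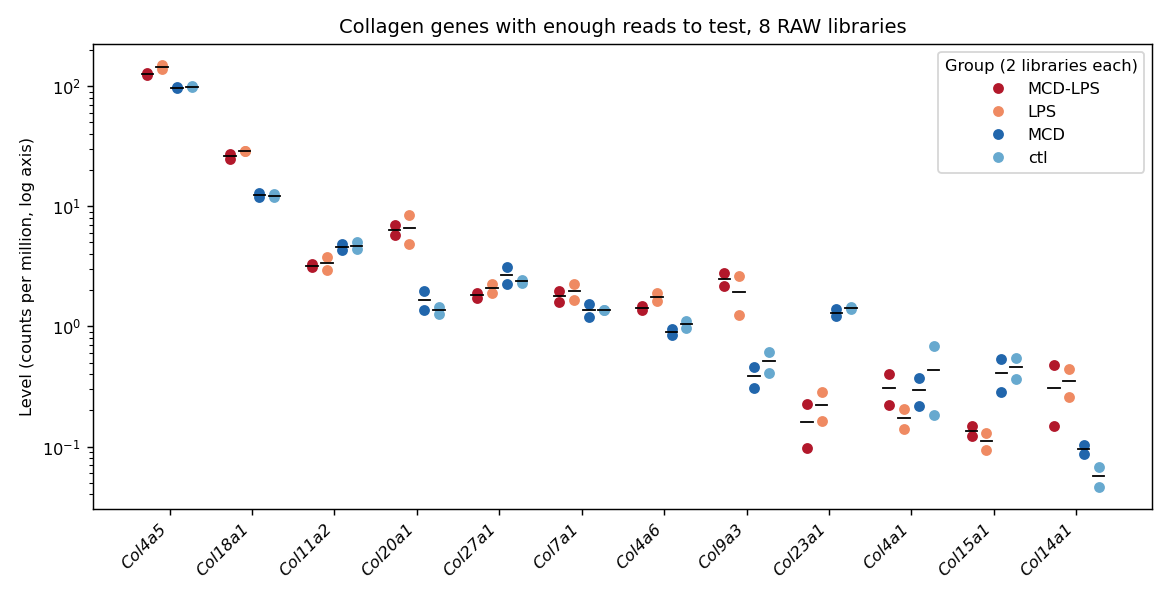
Level of the 12 collagen genes with enough reads to test, in CPM on a log axis, in the 8 RAW libraries (points) with the group mean (bars), in the order MCD-LPS, LPS, MCD and ctl for each gene. Col4a5 lies between 96.3 and 150 CPM, Col18a1 between 11.9 and 28.7 CPM, and the other 10 genes are under 9 CPM in every library.

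Of these 12 genes, 7 lay higher in all 4 libraries with LPS than in all 4 without it, 4 lay lower and 1 overlapped. Col14a1 had enough reads only in the table with LPS, and Col15a1, Col23a1 and Col4a1 only in the table without LPS. For these genes the filter favours the side on which they entered, so their separation and ratios are a description only. Over all 12208 genes kept in either table the libraries separated in this way for 67.6% (29.4% above and 38.3% below). The ratio of the mean with LPS to the mean without it was largest for Col9a3 (4.93), Col14a1 (4.33) and Col20a1 (4.29), was 2.22 for Col18a1, 1.63 for Col4a6, 1.38 for Col4a5 and 1.37 for Col7a1, and was smallest for Col23a1 (0.141) and Col15a1 (0.286). Without MCD, the ratio of LPS to ctl was 1.46 for Col4a5, 2.34 for Col18a1 and 0.156 for Col23a1. After MCD, the ratio of MCD-LPS to MCD was 1.29 for Col4a5, 2.10 for Col18a1 and 0.123 for Col23a1. The libraries with and without LPS are in tables that carry different tags in their column headings, so that LPS and any difference between the tables cannot be told apart, and no test was made. The median log2 ratio over the 12208 genes was -0.05.

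Per kilobase of exon, over the 8 libraries together, the order was Col4a5 (17.2 CPM per kb), Col18a1 (2.77), Col20a1 (0.748), Col11a2 (0.581) and Col9a3 (0.328), followed by Col27a1 (0.173), Col4a6 (0.159), Col7a1 (0.156) and Col23a1 (0.142), and then Col15a1 (0.0452), Col4a1 (0.0408) and Col14a1 (0.0277), all in CPM per kb. The ranges of the libraries overlapped between neighbours from Col20a1 downward, so only the first 2 places can be read as an order. In each library Col4a5 was 4.70 to 8.82 times Col18a1 per kilobase.

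The remaining 43 genes never reached 10 normalized reads in at least 2 libraries of a table. They included all 11 genes that are not collagens. Of the 43 genes, 14 had 0 reads in all 8 libraries and the other 29 had between 1 and 30 reads over the 8 libraries together, with no gene above 0.233 CPM in any library. The chains of the main connective tissue collagens were among them. Col1a1 had 23 reads, Col1a2 had 1 read and Col3a1 had 0. The Col1a1 reads were 1 and 6 in MCD-LPS cells, 4 and 9 in LPS cells, 0 and 1 in MCD cells and 2 and 0 in ctl cells. The ranges with and without LPS overlapped, and no test was made. The collagen VI genes Col6a1, Col6a2 and Col6a3 had 2, 0 and 0 reads. Fn1 (fibronectin) had 5 reads, Sparc (a collagen-binding glycoprotein) 2, Dcn (the collagen-binding proteoglycan decorin) 1, Aebp1 1, Bmp1 (the protease that trims procollagen) 6 and Cald1 4. Bgn, Lum, Postn and Lox (lysyl oxidase, which cross-links collagen) had 0. Cdh11, a cadherin of mesenchymal cells, had 30 reads and never more than 8 in a library.

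Marrow macrophages had the reverse pattern. Summed over the 55 genes, the authors' mean was 8335 CPM in the marrow table, of which Col4a5 made up 0.0198%. Among marrow macrophages 37 genes were at 1 CPM or more, 23 were at 50 CPM or more and 20 were at 100 CPM or more. The fibrillar collagens led, with Col1a1 at 0.0667 CPM over the 8 RAW libraries and 1179 CPM in marrow, and Col1a2 at 0.00290 CPM over the 8 RAW libraries and 1154 CPM in marrow. Col3a1, at 0 reads in RAW cells (up to 0.00870 CPM), was at 564 CPM in marrow. The glycoproteins Fn1 and Sparc were at 578 and 545 CPM in marrow, Lox at 516 CPM, Bgn at 490 CPM, Col6a1 at 433 CPM and Aebp1 at 382 CPM. By class, the 11 fibrillar collagens summed to 6.43 CPM in the 8 RAW libraries and 3493 CPM in marrow, and the 6 collagen VI chains summed to 0.0435 CPM in RAW cells and 946 CPM in marrow. The 6 collagen IV chains were the closest of the larger classes, at 118 CPM in RAW cells and 282 CPM in marrow, but with different chains: Col4a1 and Col4a2 were at 178 and 102 CPM in marrow, where Col4a5 was at 1.65 CPM.

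Col4a5, Col4a6 and Col7a1 were the 3 genes whose authors' mean was higher in both tables of the 8 RAW libraries than in marrow. Col4a5 was at 135 CPM in the MCD-LPS and LPS table and 98.3 CPM in the MCD and ctl table, against 1.65 CPM in marrow. Col4a6 was at 1.59 and 0.973 CPM in these RAW tables, against 0.00853 CPM in marrow. Col7a1 was at 1.87 and 1.37 CPM, against 0.968 CPM in marrow. The separate RAW tables held Col4a5 and Col4a6 above marrow as well. Col7a1 was below marrow there, at 0.727 CPM (untreated and LPS) and 0.757 CPM (statin and statin-LPS). The marrow table and the MCD-LPS and LPS table both hold LPS-treated cells, but cell type and table differ together and cannot be told apart.

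Markers of stromal cells differed between the cultures as well. In the marrow table the chemokine Cxcl12 was at 324 CPM and smooth muscle actin Acta2 at 315 CPM. Alpl was at 134 CPM, Pdgfrb at 100 CPM and Pdgfra at 54.9 CPM. The collagen chaperone Serpinh1, which belongs to the list of collagen processing genes and not to the markers, was at 301 CPM. In the 8 RAW libraries Cxcl12 had 0 reads, Pdgfra 1 read, Serpinh1 74 reads, Acta2 150 reads, Alpl 180 reads and Pdgfrb 326 reads. Other markers were low in marrow as well, with Thy1 at 0.596 CPM, Mfap5 at 0.380 CPM, Dpt at 0.0426 CPM and Tcf21 at 0, and Pi16 was at 5.03 to 7.42 CPM in the RAW libraries and 0.0252 CPM in marrow. Of the 8 osteoblast or marrow stroma markers, 2 were at 50 CPM or more in marrow, while Runx2 was at 2.34 to 12.5 CPM in the RAW libraries and 6.43 CPM in marrow. Of the 16 fibroblast or stromal markers, 9 were at 50 CPM or more in marrow, and 4 reached 1 CPM in a RAW library. Both counts include Gsn (218 CPM in marrow, 223 to 781 CPM in RAW) and S100a4 (132 CPM in marrow, 883 to 1116 CPM in RAW). The list summed to between 1151 and 1824 CPM in the RAW libraries and 1183 CPM in marrow, but nearly all of the RAW sum came from Gsn and S100a4, which macrophages also express. Macrophage markers summed to 19276 CPM in marrow, of which Lyz2 gave 11169 CPM. Adgre1 was at 90.5 to 165 CPM in the RAW libraries and 2147 CPM in marrow. Mertk had 20 reads in the RAW libraries and was at 140 CPM in marrow. Csf1r went the other way, at 1684 to 1890 CPM in the RAW libraries and 901 CPM in marrow. Epithelial markers summed to 0.123 CPM in marrow and endothelial markers to 53.5 CPM, of which Kdr gave 45.7 CPM. In such bulk cultures a small number of matrix-producing cells with high levels and a low level in all cells cannot be told apart.

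**Figure D2:**
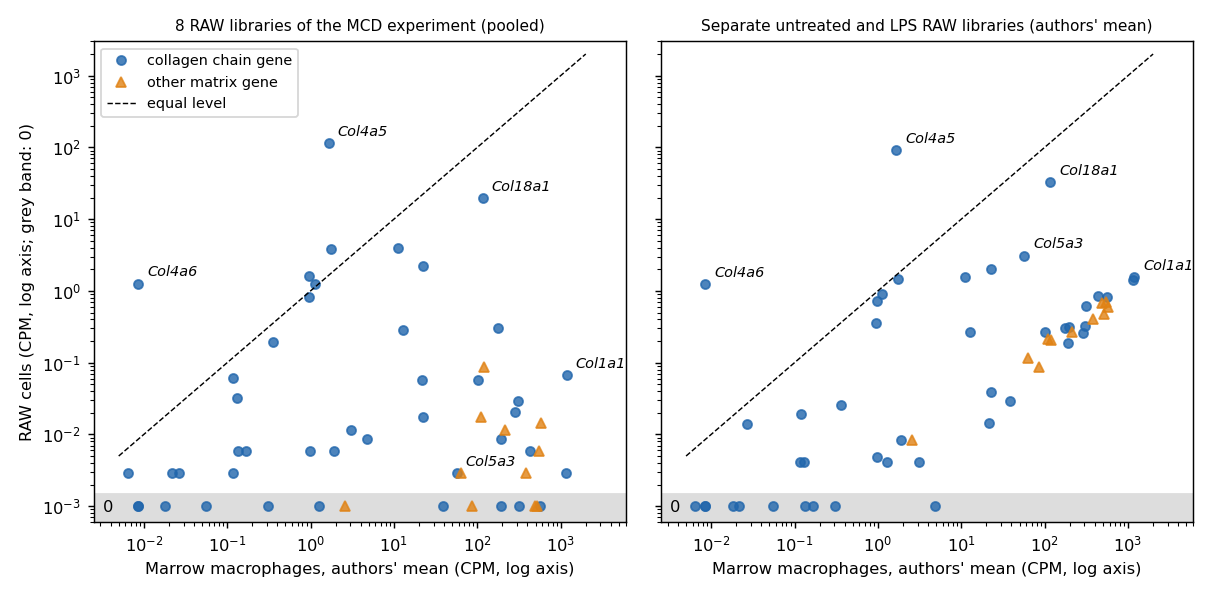
Level of the 55 genes in RAW cells (vertical axis, CPM, log) against the authors' mean in marrow macrophages (horizontal axis, CPM, log), for the 8 RAW libraries together (left) and for the separate table of untreated and LPS-treated RAW cells (right); circles are collagen chain genes, triangles are the 11 others, the dashed line is equal level and the grey band holds genes at 0. Col4a5 and Col4a6 lie above the line in both panels. The genes of high level in marrow, at the right side of the plot, form a narrow band in the right panel, apart from Col18a1 and Col5a3. In the left panel these genes, apart from Col18a1 and Col4a1, are at 0.0870 CPM or less. Col4a1 is at 0.305 CPM in the left panel and 0.308 CPM in the right panel.

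The separate RAW tables differed from the 8 libraries in this low range. Summed over the 55 genes they held 148 CPM (untreated and LPS) and 131 CPM (statin and statin-LPS), and Col4a5 again led with 92.7 and 61.8 CPM. There, however, none of the 23 genes at 50 CPM or more in marrow was at 0. Their level as a share of the marrow level had a median of 0.139% in the untreated and LPS table (quartiles 0.107% and 0.189%) and 0.148% in the statin and statin-LPS table (quartiles 0.130% and 0.175%). In the MCD-LPS and LPS table the median share was 0.00232% with 11 of the 23 genes at 0, and in the MCD and ctl table it was 0.00148% with 8 at 0. Col4a1 did not differ in this way. Its share was 0.173% (untreated and LPS), 0.114% (statin and statin-LPS), 0.136% (MCD-LPS and LPS) and 0.205% (MCD and ctl). Over all 3508 genes at 50 CPM or more in marrow the median shares in the 4 tables lay between 92.2% and 101%.

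The shares of single genes were close to each other in the separate RAW tables. Col1a1 was at 1.56 CPM (0.132% of its marrow level) in the untreated and LPS table and 1.75 CPM (0.149%) in the statin and statin-LPS table. Col1a2 was at 0.125% and 0.123%, Col3a1 at 0.145% and 0.113%, Fn1 at 0.102% and 0.163%, Sparc at 0.130% and 0.149%, Lox at 0.0925% and 0.148%, and Bgn at 0.139% and 0.158% of their marrow levels in these 2 tables. Exceptions were Col18a1 (27.9% and 35.3%), which all RAW tables held at 12.4 CPM or more, and Col5a3, a minor chain of collagen V, which was at 3.10 and 2.39 CPM (5.47% and 4.21%) there but had 1 read in the 8 libraries. Apart from these 2 genes, the shares ran from 0.0921% (Col5a2) to 0.258% (Col4a2) in the untreated and LPS table and from 0.109% (Cald1) to 0.293% (Bmp1) in the statin and statin-LPS table.

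Of these 23 genes, 18 were under 0.05 CPM over the 8 libraries, a limit chosen after the values were seen. Across these 18 genes the log10 levels in the separate RAW tables and in marrow had a Pearson r of 0.42 and 0.48 and a Spearman rho of 0.60 and 0.63, as a description across genes that share libraries, with Col5a3 far from the rest. Outside the set, 76 other genes were at 50 CPM or more in marrow and under 0.05 CPM in the 8 libraries. Their shares varied more in the untreated and LPS table, with a median of 0.212%, quartiles of 0.129% and 0.358% and a highest share of 67.6% (Il6), and in the statin and statin-LPS table the median was 0.143%, the quartiles 0.1201% and 0.192% and the highest share 4.96% (Slc7a2). The 18 collagen and matrix genes had medians of 0.128% and 0.146% in these 2 tables. The 7 genes of the set at 1 to 50 CPM in marrow and under 0.05 CPM in the 8 libraries, ran from 0% to 0.441% and from 0% to 0.651%. Among the markers, Cxcl12 stood at 0.102% and 0.125% of the marrow level, and Pdgfra at 0.106% and 0.139%. Loxl1 was at 0.164% and 0.100%, and Tagln at 0.129% and 0.258%. The markers Acta2 (0.199% and 0.192%), Pcolce (0.252% and 0.255%) and Alpl (0.0718% and 0.0985%) were near these shares too. So was the processing gene Serpinh1 (0.129% and 0.105%). Acta2, Pcolce, Alpl and Serpinh1 were above 0.05 CPM in the 8 libraries. Others were higher in at least 1 of these tables: Pdgfrb was at 1.71% and 7.17%, Mertk at 2.03% and 0.920%, and Fbn1 at 2.32% and 0.162%. Of these, Pdgfrb and Mertk were also above 0.05 CPM in the 8 libraries. The markers given are examples from the lists. The column headings of the marrow table and of the separate RAW tables carry one tag, and those of the 8 libraries carry others; the sources used here do not say what the tags stand for, and their part in these shares was not tested.

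**Figure D3:**
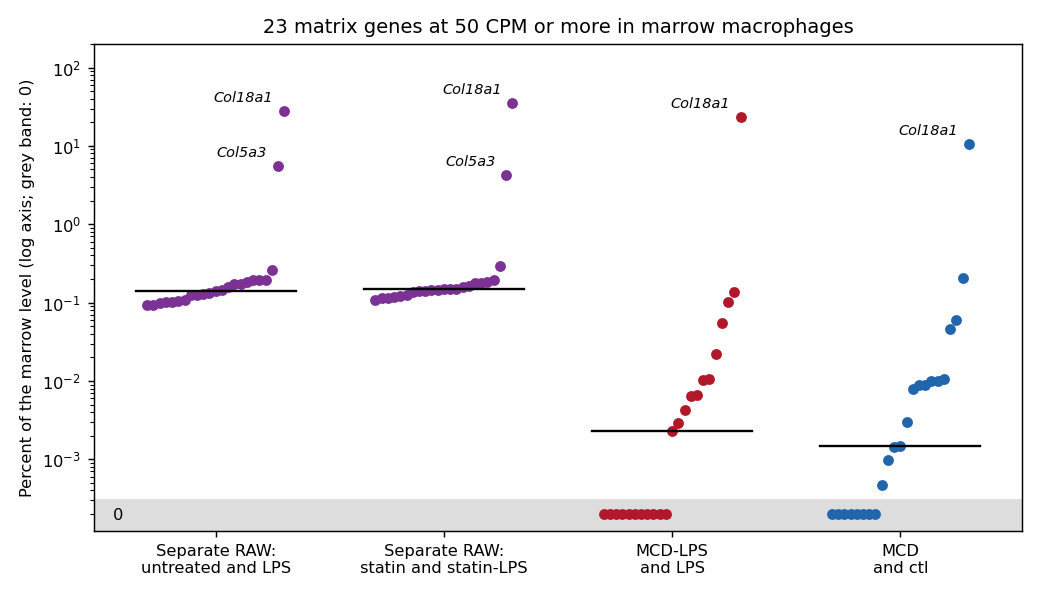
Level of the 23 genes at 50 CPM or more in marrow macrophages as a percent of the marrow level (log axis; the grey band holds genes at 0), in the separate RAW tables (untreated and LPS; statin and statin-LPS) and in the tables of the 8 libraries (MCD-LPS and LPS; MCD and ctl); points are genes in rising order and bars are medians. All but Col18a1 and Col5a3 lie between 0.0921% and 0.293% in the separate tables, while 11 and 8 genes are at 0 in the tables of the 8 libraries.

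The first comparison by treatment asked whether removal of cholesterol with MCD changes these genes in LPS-stimulated cells. Of the 55 genes, 9 had enough reads to test, and 1 of them, Col4a5, was called, as lower. Over all 11976 genes tested, limma called 25.9% at an adjusted p under 0.05 (12.9% higher and 13.0% lower), so that 1 of 9 was under that share. Col4a5 had 5242 and 5011 normalized reads in MCD-LPS cells, against 6024 and 5650 in LPS cells, and the groups did not overlap. The means were 5126 ± 163 in MCD-LPS cells and 5837 ± 264 in LPS cells (SD, n = 2 each). Its log2 fold change was -0.19 (SE 0.05, limma adjusted p = 0.0148), a level of 0.879 times that in LPS cells. The call was lost without MCD-LPS replicate 2 (adjusted p = 0.0983 by limma), without LPS replicate 1 (adjusted p = 0.0549 by limma) and in a fit to the 4 libraries compared (adjusted p = 0.0625 by limma). Over all alternatives its limma adjusted p lay between 0.00421 and 0.0983, and its log2 fold change between -0.23 and -0.14.

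The other 8 genes did not pass. Col4a6 had 56.3 and 59.6 normalized reads in MCD-LPS cells, against 75.7 and 65.7 in LPS cells, with a log2 fold change of -0.28 (95% interval -0.69 to 0.13). Col18a1 had 1020 and 1113 in MCD-LPS cells, against 1154 and 1154 in LPS cells, with a log2 fold change of -0.11 (95% interval -0.28 to 0.05). For Col4a5, Col4a6 and Col18a1 the groups did not overlap, which is 3 of 9, whereas over all genes tested 60.6% did not overlap. Col9a3 had the highest value, 0.46, with an interval of -0.36 to 1.27, since the LPS libraries themselves stood at 49.6 and 106 normalized reads. Col14a1 (-0.29), Col27a1 (-0.16), Col7a1 (-0.11), Col11a2 (-0.03) and Col20a1 (0.00) all had overlapping groups. The median log2 fold change of the 9 genes was -0.11, and that of all genes tested was 0.00.

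In resting cells, 0 of the 11 collagen genes tested passed for MCD against ctl with limma, and 0 had an unadjusted p under 0.05. An unadjusted p under 0.05 was found for 1259 of all 11777 genes tested. Over all 11777 genes limma called 1.11%, 1.08% as higher (127 genes) and 0.0340% as lower (4 genes). Col4a5 had 4390 and 4507 normalized reads in MCD cells, against 4544 and 4467 in ctl cells, and a log2 fold change of -0.02 with an interval of -0.12 to 0.08, the narrowest of the set. Col18a1 had 545 and 592 in MCD cells, against 539 and 576 in ctl cells, with a log2 fold change of 0.03 (95% interval -0.14 to 0.19). The log2 fold changes of the 11 genes ran from -0.39 (Col9a3) to 0.27 (Col20a1), with a median of -0.03, and that of all genes tested was 0.00. Col4a1, with 8 to 30 reads per library, had the widest interval, from -1.62 to 1.02. The groups did not overlap for Col4a6 and Col23a1, which is 2 of 11, whereas over all genes tested 47.9% did not overlap.

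The effect of MCD with LPS minus that without LPS, a test added after the data had been seen, was -0.17 for Col4a5 (SE 0.06, limma adjusted p = 0.103) and 0.85 for Col9a3 (SE 0.52, limma adjusted p = 0.290). With limma, 0 of the 8 collagen genes tested in both tables passed, while 17.1% of all 11545 genes passed.

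**Figure D4:**
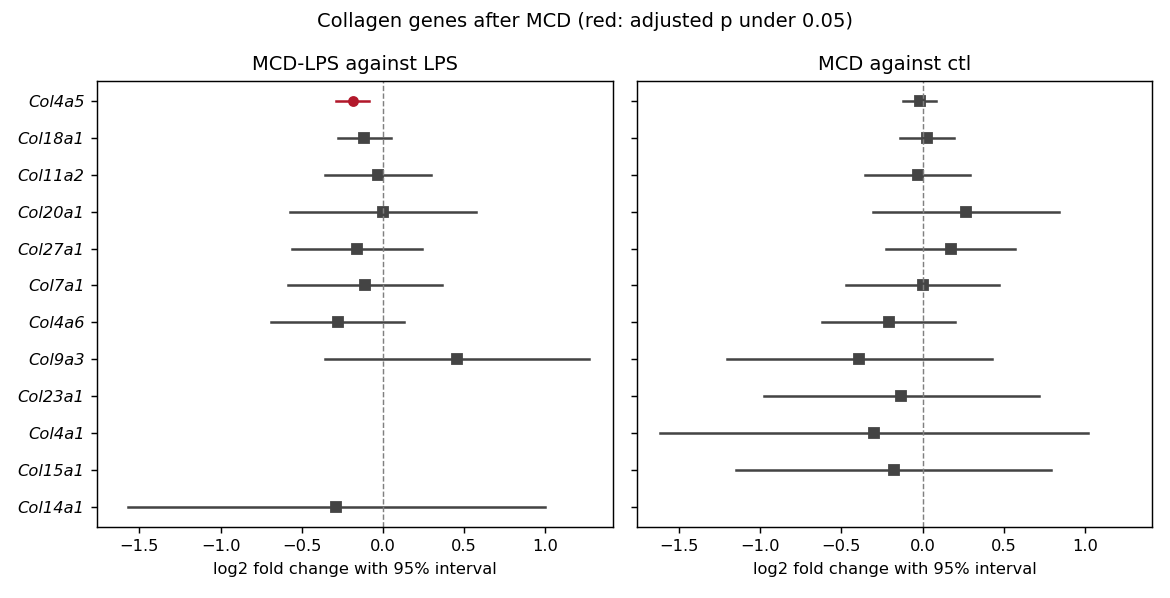
Log2 fold change (points) with its 95% interval (lines) for the collagen genes tested, for MCD-LPS against LPS (left) and MCD against ctl (right); genes without a point in a panel had too few reads in that table. Col4a5 in the left panel, at -0.19, is the one gene whose adjusted p is under 0.05.

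The enzymes that hydroxylate, fold and cross-link collagen chains were followed in a list of 34 symbols, of which 28 were in the tables. They summed to between 2476 and 4538 CPM in the 8 RAW libraries and 2697 CPM in marrow, but with different genes. P4hb alone was at 1400 to 3153 CPM in these RAW libraries and 495 CPM in marrow. The separate RAW tables held P4hb nearer its marrow level, at 551 CPM (untreated and LPS, 111%) and 912 CPM (statin and statin-LPS, 184%). Serpinh1 was at 0.0206 to 0.772 CPM in the RAW libraries and at 301 CPM in marrow, Loxl2 had 12 reads in RAW cells and was at 113 CPM in marrow, and Adamts2 had 2 reads in RAW cells and was at 60.8 CPM in marrow. For MCD-LPS against LPS, 3 of 15 passed with limma, all lower, against 25.9% of all genes called and 13.0% called lower. These were the prolyl 4-hydroxylase subunits P4ha1 (log2 fold change -0.16, adjusted p = 0.0398) and P4hb (-0.16, adjusted p = 0.0391), which other proteins also use, and the lysyl hydroxylase Plod3 (-0.13, adjusted p = 0.0296). The median of the list was -0.13. None of the 3 calls held in a fit to the 4 libraries compared. For MCD against ctl, 0 of 14 passed with limma, and the median was 0.00. P4ha2 (log2 fold change 0.73, adjusted p = 0.0975 by limma) was the 1 gene of 14 with an unadjusted p under 0.05. Among all genes tested, 1259 of 11777 were under that limit. The collagen chaperone Fkbp10, the cross-linking enzyme Loxl1 and the procollagen-processing cofactor Pcolce2 had 0 reads in all 8 libraries.

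Receptors through which cells bind matrix were followed in a list of 20. For MCD-LPS against LPS, 2 of 14 were higher and 4 were lower with limma, against 12.9% and 13.0% of all genes. In the fit to the 4 libraries compared these counts were 1 higher and 1 lower, and without MCD-LPS replicate 2 they were 1 higher and 1 lower. Cd44, the hyaluronan receptor, was higher (log2 fold change 0.48, adjusted p = 0.000473), as was Itga5, the α chain of the fibronectin receptor (0.29, adjusted p = 0.0412). Itgav (-0.37, adjusted p = 0.00132), Itga10 (-0.57, adjusted p = 0.0347), Itga6 (-0.20, adjusted p = 0.0365) and Dag1 (dystroglycan; -0.21, adjusted p = 0.0104) were lower by limma. For MCD against ctl, 2 of 13 were higher and 0 were lower with limma, against 1.08% and 0.0340% of all genes. The 2 were Itga5 (log2 fold change 0.49, adjusted p = 0.0379) and the syndecan Sdc4 (0.43, adjusted p = 0.0184). Both of these calls were lost without MCD replicate 2, without ctl replicate 1 and without ctl replicate 2. The median of the list was -0.11 for MCD-LPS against LPS and 0.05 for MCD against ctl, and that of all genes was 0.00 in both.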

How the data were processed

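RNA-seq was performed on 8 libraries of RAW macrophages in 4 groups of 2 libraries, made with ribosomal RNA depletion and a stranded KAPA kit. The build mm10, DESeq2 1.18.1, HTSeq 0.9.1 and STAR 2.5.3 are named in the processing notes of the submitters. The study's methods name another quantifier and another DESeq2 release, and it is not clear which of them made the tables. For each library the authors deposited a signal: gene counts divided by a size factor, within each table separately, with a mean per gene and table. A further 12 columns of values, from libraries outside the 8 samples, the authors' fold changes and p-values, and the 5 tables of called genes were not used. The ctl and LPS columns were taken, by inference, to be those in the tables that also hold MCD libraries.

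In all 8 libraries the values were whole multiples of the smallest value, within 0.01, and the reads given are these multiples. In 3 libraries (MCD replicate 2 and both MCD-LPS replicates) that step was 0.993 to 1.01 units, close to 1. No separate check of the recovery was made there, so reads and limits for a count of 0 rest on the step alone. CPM were scaled to the reads in genes. A count of 0 allows 0.0619 to 0.0776 CPM per library (3 reads), which covers counting error only. Exon lengths and positions came from a GENCODE annotation of the same build. Genes reaching a value of 10 in at least 2 libraries of a table entered the test, which was limma 3.58.1 (R 4.3.3, trend) on log2(value + 1), a scale that understates changes of low genes, with 1 estimate of the spread for all 8 libraries, contrasts within a table, two-sided p adjusted by Benjamini-Hochberg over all genes tested and read at 0.05. The code was tested on simulated data. The design assumed normalized values, so count tests were not the main test. Since separate cultures are not stated for the 2 libraries of a group, the p-values cover just the spread among these samples, which may be technical. Alternatives were another pseudocount, no filter, the 4 libraries of a table alone, a replicate block and each library left out.

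Every gene of the set with a value of at least 10 in 2 libraries of a table was named with its values, and the others were counted. The genes and lists were chosen with earlier results of these data known, and the comparison of libraries with and without LPS, the shares of the marrow level and the difference of the MCD effects were added after the data had been seen.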

Additional observations from a re-analysis of the deposited data

How the results depend on the processing

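For the collagen and matrix genes themselves, 0 of 11 passed for MCD against ctl under every alternative run. For MCD-LPS against LPS, the 1 gene called lower (Col4a5) became 0 in the fit to the 4 libraries compared and 0 to 1 when each library was left out. The log2 fold change of Col4a5 stayed negative in this comparison under each alternative run.

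Counts over all genes moved more. For MCD against ctl, 127 genes were higher and 4 lower. Without the filter on low values these counts were 84 and 1, in the 4 libraries alone 450 and 115, and with a library left out 27 to 289 and 0 to 31. For MCD-LPS against LPS, 1548 were higher and 1551 lower; in the 4 libraries alone there were 819 and 972, and there were 890 to 1795 and 924 to 1605 with a library left out. Collagen processing genes for MCD against ctl had 1 higher in the 4 libraries alone, in place of 0. For MCD-LPS against LPS, 3 were lower, against 1 without the filter, 0 in the 4 libraries alone and 0 to 3 with a library left out. Matrix receptors for MCD against ctl had 2 higher, against 0 without the filter and 0 to 2 with a library left out. For MCD-LPS against LPS, 2 were higher, against 1 without the filter, 1 in the 4 libraries alone and 1 to 3 with a library left out, and 4 were lower, against 1 in the 4 libraries alone and 1 to 3 with a library left out. Fits to the 4 libraries rest on fewer samples and take the spread from those libraries alone, and without the filter more genes are tested. In the 4 libraries alone the counts over all genes rose for MCD against ctl and fell for MCD-LPS against LPS. The reason for these opposite shifts was not tested.

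Replicate numbers are shared between groups, but same-numbered libraries did not deviate together (correlation 0.037 in either table), so the numbers were not taken to pair them. The replicate block was added to the fit to the 4 libraries compared and changed its counts. For MCD against ctl, 700 genes were higher and 298 lower with the block, against 450 and 115 without it. With the block, 1 processing gene was higher, 1 processing gene lower and 1 receptor lower. For MCD-LPS against LPS, 2 receptors were lower with the block. Col4a5 was called with the block (limma adjusted p = 0.0309) and not without it (limma adjusted p = 0.0625). Tests on recovered reads with edgeR and DESeq2 were planned and not run. In 3 libraries the step was close to 1 unit (0.993 to 1.01), and the reads there rest on whole multiples of that step alone. At these depths 43 of the 55 genes were too low to test, so differences in them were not detectable.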
